A study of Mus musculus with 6 samples.

Results

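The genes described here carry vesicle traffic, the lysosome and autophagy in the hearts of diabetic mice. They were taken by symbol: the Rab GTPases and their partners, the Vps proteins, the sorting nexins (Snx), the syntaxins (Stx), the cathepsins (Cts), the subunits of the vacuolar proton pump (Atp6v), and the Atg, Map1lc3, Serinc and Reep genes, with pseudogenes left out. These symbols gave 43 of the 4132 genes analysed here, and 38 of the 43 had a mean of at least 1 FPKM and were tested. FPKM counts a gene's fragments after correction for transcript length and library size. The 43 genes comprised 14 Rab GTPases, 3 Rab effectors and regulators, 7 Vps genes, 9 sorting nexins, 3 syntaxins, 2 cathepsins, 2 autophagy genes, 1 pump subunit, *Serinc3* and *Reep6*. The Lamp, Vamp, Becn, Sqstm and Gabarap genes were not analysed here.

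All 6 mice were *db/db* mice (genotype lepr-/-), which carry the mutant leptin receptor gene in every cell and become obese and diabetic. Injections i.p. began at an age of 10 weeks and went on for 16 weeks, on alternate days. In 3 mice they held 0.5 mg/kg of FGF1ΔHBS, an FGF1 variant of low mitogenic activity, and in the other 3 mice saline (vehicle). The labels give the age of all mice as 26 weeks, and whole heart tissue was measured. Lean control mice were not analysed here, so the comparison was made between treated and untreated diabetic hearts alone.

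Cells move membrane and cargo between compartments in vesicles. Rab GTPases mark each compartment and recruit the machinery that carries, tethers and docks a vesicle, SNARE proteins such as the syntaxins fuse it, and sorting nexins and Vps complexes send its cargo to the surface, the Golgi or the lysosome. The lysosome is acidified by a proton pump and holds proteases such as the cathepsins, and autophagy delivers worn parts of the cell to it in vesicles coated with LC3. In heart muscle this system clears damaged mitochondria and proteins, and vesicles also bring the glucose transporter to the surface in response to insulin.

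The tissue was heart by its markers, since the 4 cardiomyocyte genes analysed here summed to between 13324 and 15569 FPKM in every mouse. By the commonest ratio of low values between libraries, the deepest library, vehicle replicate 2, had 1.21 times the depth of vehicle replicate 1. Vehicle replicate 3 stood apart. The 3 macrophage and leukocyte markers analysed here (*Cd74*, *Cd14* and *Ptprc*) summed to 103.5 FPKM in it, against 30.4 and 32.6 FPKM in the other vehicle mice and 8.08 to 9.45 FPKM in the treated mice. *Dcn*, a fibroblast gene, was at 154 FPKM in that mouse, against 284 and 288 FPKM in the other vehicle mice and 368 to 431 FPKM in the treated mice. In bulk tissue, fewer cells of a type and less RNA per cell cannot be told apart. The results of the whole set are given with and without it.

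The levels of the 43 genes spread widely. *Map1lc3a*, which encodes the autophagosome protein LC3A, had the highest level at a mean of 366 FPKM over the 6 mice, and *Serinc3* came next at 150.2 FPKM. *Rab12*, *Ctsb* and *Rab11b* followed at 89.5, 87.2 and 76.3 FPKM, and the ranges of these 3 genes overlapped. Of the 43 genes 13 had a mean of at least 10 FPKM, and 5 had a mean under 1 FPKM, among them *Rab32*, *Snx20*, *Rab15* and *Rab19*. The median of the 38 tested genes was 6.87 FPKM, near the 7.09 FPKM of all 2041 genes tested.

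**Figure D1:**
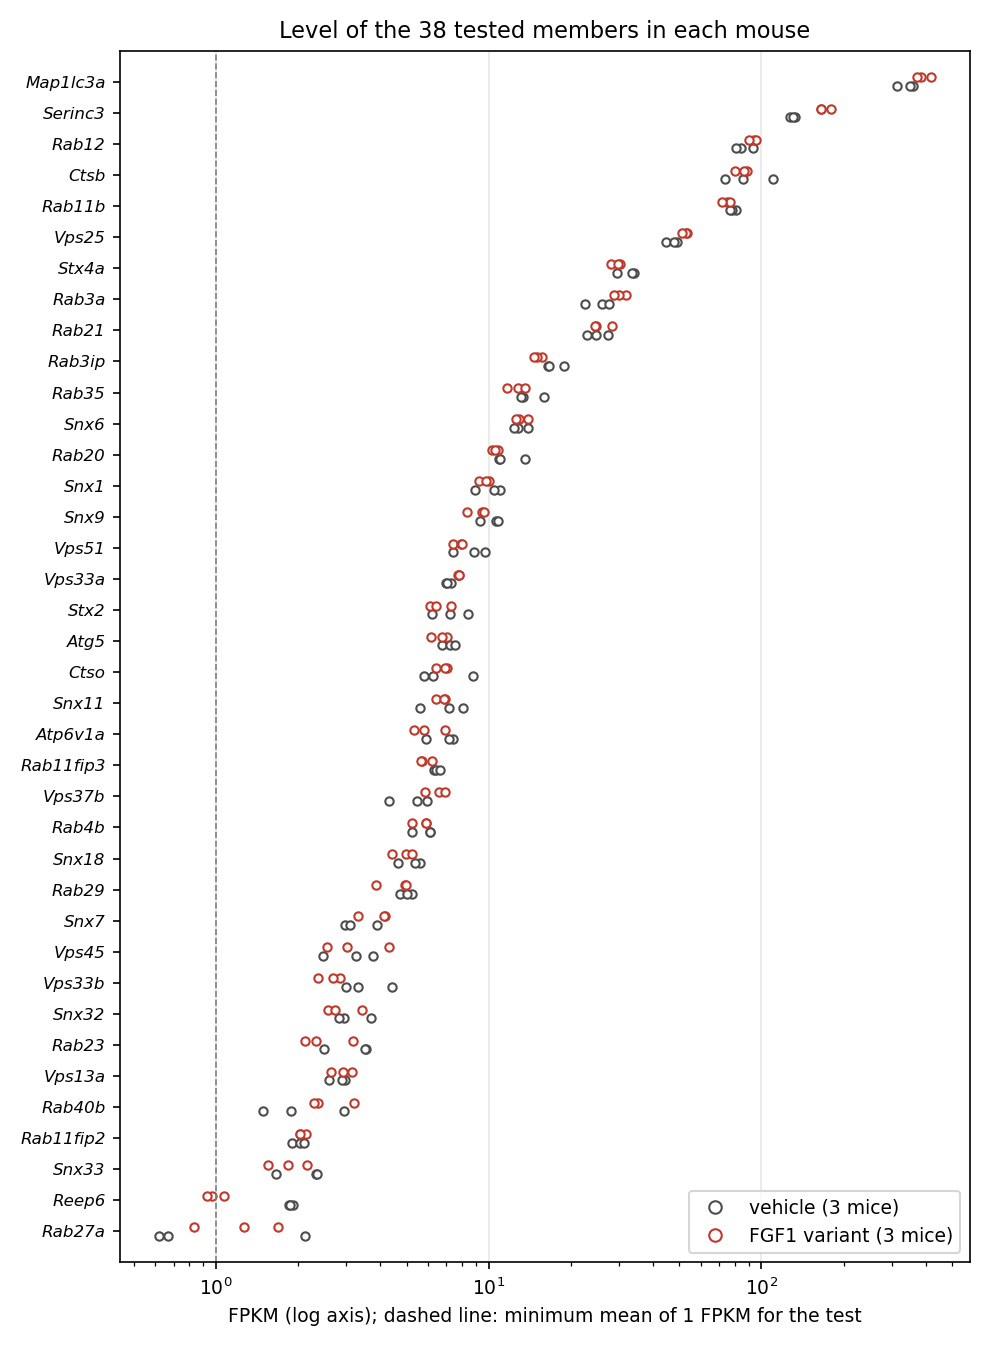
Level of the 38 tested genes in each mouse, in FPKM on a log axis, ordered by the mean over the 6 mice, with grey points for vehicle and red points for FGF1ΔHBS. *Map1lc3a* and *Serinc3* lie above 100 FPKM in every mouse, and *Rab27a* has the mean nearest the minimum for the test (dashed line).

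The question was which of these genes differed between treated and vehicle hearts. By limma, 2 of all 2041 genes tested (0.0980%) had a Benjamini-Hochberg adjusted p under 0.05, and 0 of the 38 vesicle genes did. Their smallest adjusted p was 0.106, that of *Serinc3*. At an unadjusted p under 0.05 by limma there were 6 of the 38 genes (15.8%), against 17.1% of all genes tested. *Serinc3*, *Vps25* and *Rab3a* were higher with FGF1ΔHBS (7.89%, against 7.10% of all genes), and *Reep6*, *Vps33b* and *Rab3ip* were lower (7.89%, against 10.0% of all genes). Vehicle and treated mice were fully separated in 5 genes that were higher (13.2%, against 10.7%) and 5 that were lower (13.2%, against 13.6%). These shares lay near those of all genes. The median log2 fold change was -0.059 over the 38 genes and -0.021 over all genes tested. Of the 38 genes, 23 were below 0 and 15 (39.5%) above 0, against 45.2% of all genes tested above 0.

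Vehicle replicate 3 decided whether any vesicle gene passed the adjusted threshold. Without it, *Serinc3* (adjusted p = 0.0428 by limma) and *Reep6* (adjusted p = 0.0459 by limma) passed, and 82 of all genes did. Their log2 fold changes were nearly the same with that mouse (0.38 and -0.54) and without it (0.39 and -0.54). The number at an unadjusted p under 0.05 was then 10 of 38 (26.3%), against 24.2% of all genes, and those added were *Rab12* and *Rab40b*, higher, and *Rab23*, *Snx9*, *Stx4a* and *Vps51*, lower. Leaving out vehicle replicate 2 gave 5 (13.2%, against 13.2% of all genes), and leaving out vehicle replicate 1 gave 3 (7.89%, against 16.0%). Leaving out FGF1ΔHBS replicate 1 gave 2 (5.26%, against 13.8%), replicate 2 also 2 (5.26%, against 11.3%) and replicate 3 gave 3 (7.89%, against 13.6%). *Serinc3* and *Reep6* stayed under an unadjusted p of 0.05 whichever mouse was left out, whereas *Vps25* never did. *Rab3ip* did so only without vehicle replicate 1, *Vps33b* only without vehicle replicate 3, and *Rab3a* only without vehicle replicate 2, vehicle replicate 3 or FGF1ΔHBS replicate 3.

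**Figure D2:**
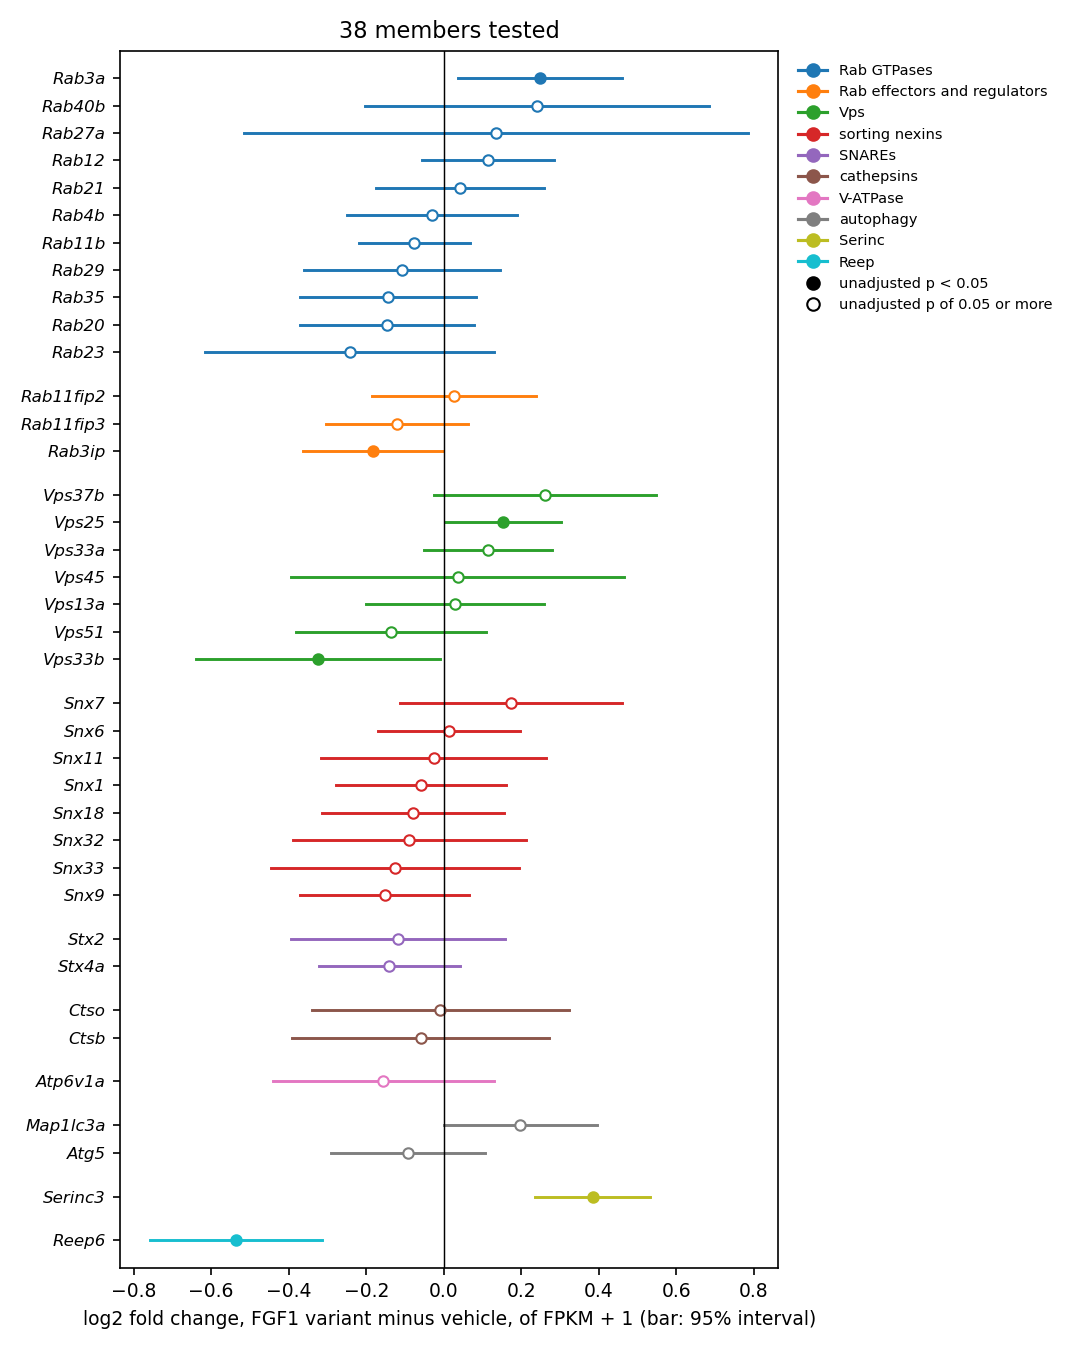
Log2 fold change of the 38 tested genes (x axis, FGF1ΔHBS minus vehicle, on the log2(FPKM + 1) scale) by family, with 95% intervals from limma and filled points for an unadjusted p under 0.05. *Serinc3* at 0.38 and *Reep6* at -0.54 lie farthest from 0, and every interval lies between -1 and 1.

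*Serinc3* encodes a protein with many membrane passages, of the serine incorporator family, which is known for lowering the infectivity of retroviruses. The gene spans bases 163623272 to 163645131 of chromosome 2 (GRCm38, as for all locations here). It was measured at 127, 133 and 130.4 FPKM in vehicle replicates 1 to 3 and 165, 166 and 179.7 FPKM in FGF1ΔHBS replicates 1 to 3. All 3 treated mice were above all vehicle mice, and the gap between the groups was wider than the range within either. The means were 130.1 ± 2.58 FPKM (SD, n = 3) and 170.3 ± 8.13 FPKM (SD, n = 3), a ratio of 1.31. On the log2(FPKM + 1) scale this was a fold change of 0.38 (SE 0.063, 95% interval 0.24 to 0.53, adjusted p = 0.106 by limma), SE being the standard error. By the two-sided exact permutation test p was 0.1, the smallest that 3 mice against 3 allow. An uncharacterised gene on the opposite strand (*0610039K10Rik*) overlaps *Serinc3* in the annotation, and strand-specific counting is not stated.

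*Reep6* belongs to a family that shapes the tubules of the endoplasmic reticulum and helps receptors reach the surface. It lies on chromosome 10 from 80329953 to 80336441, and no other annotated gene overlaps it. Its level was 1.86, 1.92 and 1.86 FPKM in the vehicle mice and 0.969, 0.925 and 1.07 FPKM in the treated mice. The level was low in all mice, and the groups did not overlap. The vehicle mean of 1.88 ± 0.035 FPKM (SD, n = 3) compared with a treated mean of 0.988 ± 0.074 FPKM (SD, n = 3), a ratio of 0.525. The log2 fold change of -0.54 (SE 0.094, 95% interval -0.76 to -0.32, adjusted p = 0.116 by limma) understates this ratio because of the pseudocount of 1. With a pseudocount of 0.1 it was -0.87. *Reep6* was the only one of the 38 genes with an absolute log2 fold change of at least 0.5.

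**Figure D3:**
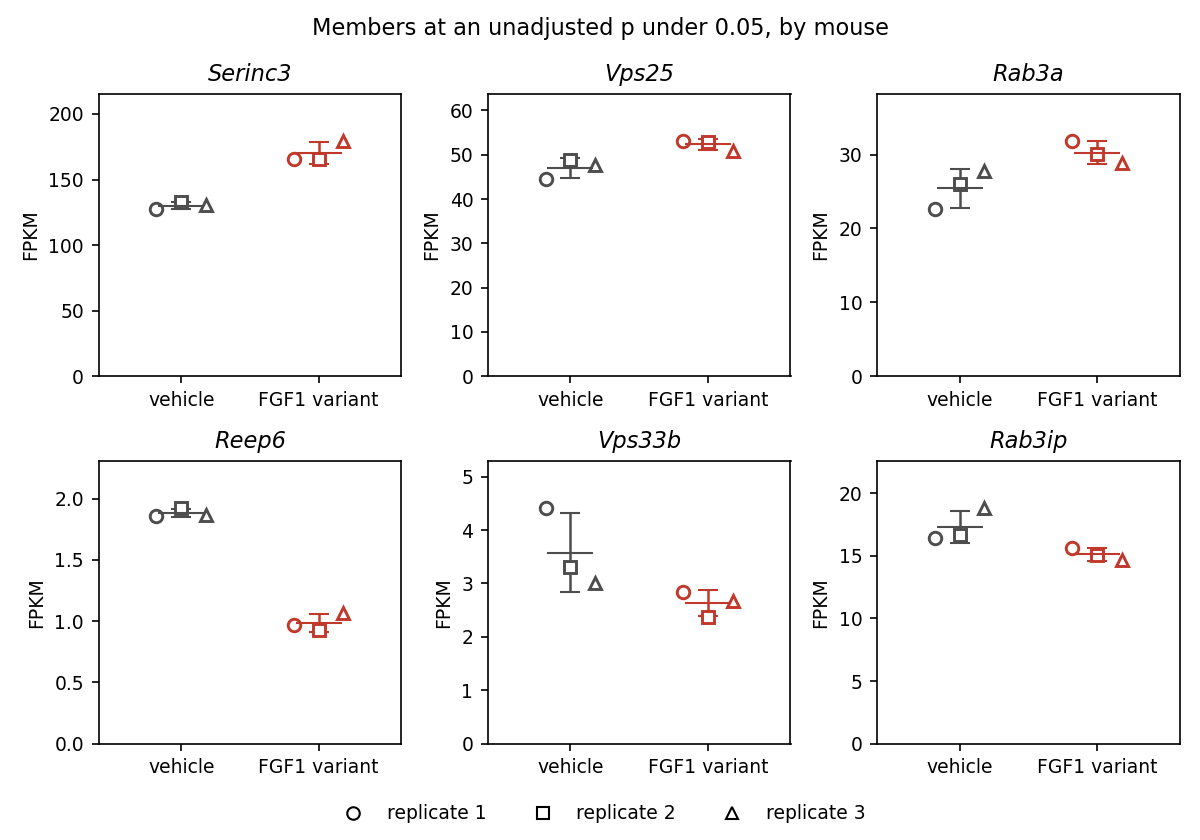
FPKM (y axis from 0) of the 6 genes at an unadjusted p under 0.05 in each mouse, with the mean and SD of each group. The treated mice lie above the vehicle mice for *Serinc3*, *Vps25* and *Rab3a* and below them for *Reep6*, *Vps33b* and *Rab3ip*, with no overlap in any panel.

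Many lysosomal genes are known to be under the control of the transcription factor TFEB, which binds an E-box with the letters CACGTG, best within TCACGTGA. The promoters of 33 of the 43 genes, 250 bases before and 50 after each RefSeq start in GRCm38.p6, were searched for both on both strands, which read alike since both are palindromes, and every TCACGTGA also contains CACGTG. The shorter motif was in the window of 8 of the 33 genes (24.2%), against 13.8% of the tested genes with a promoter and 8.09% of all genes in the promoter table. The 33 genes included *Rab15*, *Rab19* and *Rab32*, which were not tested. TCACGTGA was in 3 of 33 (9.09%), against 2.60% and 1.12%. The 3 genes were *Vps33a*, *Rab21* and *Atp6v1a*. Their promoters are printed because they carry the longer motif, and that of *Serinc3*, the gene with the smallest p, for comparison. Each is shown 5′ to 3′ on the strand of the gene, which is the minus strand for all 4, as the 250 bases that end just before the start site, with CACGTG in capitals. They lie at chr5:123573016-123573265, chr10:115315592-115315841, chr16:44139260-44139509 and chr2:163645144-163645393 in this order.
Vps33a: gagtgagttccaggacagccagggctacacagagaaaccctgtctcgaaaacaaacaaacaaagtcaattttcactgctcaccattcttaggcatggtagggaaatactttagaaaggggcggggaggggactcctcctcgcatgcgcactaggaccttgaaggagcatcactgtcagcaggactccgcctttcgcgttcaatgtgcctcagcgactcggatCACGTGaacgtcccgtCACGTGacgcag
Rab21: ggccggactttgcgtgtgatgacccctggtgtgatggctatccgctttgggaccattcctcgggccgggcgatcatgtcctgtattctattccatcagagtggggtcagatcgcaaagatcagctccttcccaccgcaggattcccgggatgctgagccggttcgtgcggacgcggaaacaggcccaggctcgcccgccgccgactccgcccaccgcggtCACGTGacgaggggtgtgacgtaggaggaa
Atp6v1a: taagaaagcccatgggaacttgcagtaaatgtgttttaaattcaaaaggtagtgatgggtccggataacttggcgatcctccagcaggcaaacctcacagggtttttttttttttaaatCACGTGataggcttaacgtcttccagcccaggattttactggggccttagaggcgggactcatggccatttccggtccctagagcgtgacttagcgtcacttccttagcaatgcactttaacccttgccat
Serinc3: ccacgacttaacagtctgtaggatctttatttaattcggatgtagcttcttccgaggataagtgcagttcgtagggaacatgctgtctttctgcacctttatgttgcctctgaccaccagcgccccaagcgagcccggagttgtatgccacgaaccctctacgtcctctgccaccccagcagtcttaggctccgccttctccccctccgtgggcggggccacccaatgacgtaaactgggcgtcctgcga

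*Vps33a* held 2 copies of the E-box, whose first bases lie 28 and 12 bases before the start site, *Rab21* had it at 30 bases and *Atp6v1a* at 131 bases. No CACGTG was found in the window of *Serinc3*. The other genes with CACGTG were *Atg5*, *Rab20*, *Rab23*, *Rab27a* and *Snx18*. For *Rab27a*, the bases just after the start in its windows were not found in an annotated transcript of the gene. Of these 8 genes, *Vps33a* was higher and *Rab20* lower with FGF1ΔHBS without overlap, and the groups overlapped for the other 6. Over all genes tested, 10.7% were higher and 13.6% lower without overlap. A match of letters is a description and not a binding site.

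Among the Rab GTPases, *Rab3a* was the 1 of 11 tested genes at an unadjusted p under 0.05. It is known for docking secretory vesicles before regulated exocytosis, and lies on chromosome 8 from 70754679 to 70758677. Its level was 22.6, 26.0 and 27.7 FPKM in the vehicle mice and 31.9, 30.1 and 28.9 FPKM in the treated mice. The groups came close, the highest vehicle mouse being replicate 3 and the lowest treated mouse replicate 3. The ratio of the means was 1.19, a log2 fold change of 0.25 (SE 0.090, adjusted p = 0.229 by limma). *Mpv17l2* overlaps *Rab3a* on the opposite strand, and the span given for *Rab3a* in the deposited table runs on into it.

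The other Rab GTPases lay within the spread between mice or at its edge. *Rab12*, which directs cargo from recycling endosomes to lysosomes, was the highest of the family at 84.4, 80.6 and 93.0 FPKM with vehicle and 93.6, 95.3 and 89.9 FPKM with FGF1ΔHBS. These ranges overlapped, and the log2 fold change was 0.11 (95% interval -0.057 to 0.28). It was 0.17 without vehicle replicate 3 (adjusted p = 0.205 by limma) and 0.068 without vehicle replicate 2. *Rab11b*, a GTPase of recycling endosomes, was at 80.9, 77.6 and 76.5 FPKM against 74.5, 76.9 and 71.5 FPKM, with overlap of 1 treated mouse. For *Rab20*, which takes part in phagosome maturation, the treated mice (10.3, 10.8 and 10.6 FPKM) were below the vehicle mice (10.9, 13.5 and 11.0 FPKM), of which replicate 2 was the highest. *Rab21* (25.4 FPKM over the 6 mice, one of the promoters printed above), *Rab35* (13.4 FPKM), *Rab4b* (5.75 FPKM) and *Rab29* (4.79 FPKM), all of endosomal or Golgi traffic, overlapped between the groups. *Rab23*, *Rab40b* and *Rab27a* had the largest standard errors of the Rab GTPases. *Rab27a*, which serves the secretion of lysosome-related organelles, was at 2.13 FPKM in vehicle replicate 2 and at 0.617 and 0.670 FPKM in the other vehicle mice. Its 95% interval of the log2 fold change, from -0.52 to 0.79, was the widest of the 38 genes.

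Of the 3 Rab partners, *Rab3ip* was at an unadjusted p under 0.05. It encodes Rabin8, the exchange factor that activates Rab8, and lies on chromosome 10 from 116905784 to 116950769. Its level was 16.5, 16.7 and 18.8 FPKM with vehicle and between 14.7 and 15.7 FPKM with FGF1ΔHBS. Every treated mouse was lower, by a log2 fold change of -0.18 (SE 0.076, adjusted p = 0.288 by limma). *Rab11fip3*, an effector of Rab11, was at 6.28, 6.42 and 6.65 FPKM with vehicle and 6.21, 5.70 and 5.67 FPKM with FGF1ΔHBS, without overlap. *Rab11fip2*, another effector of Rab11, was at 1.90, 2.04 and 2.11 FPKM and 2.04, 2.14 and 2.03 FPKM, with the groups overlapping.

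The 7 Vps genes went both ways. *Vps25* encodes a subunit of ESCRT-II, which sorts ubiquitinated receptors into multivesicular bodies, and lies on chromosome 11 from 101253707 to 101259549. Its level was 44.6, 48.9 and 47.6 FPKM with vehicle and 53.2, 52.9 and 51.0 FPKM with FGF1ΔHBS. The treated mice were higher without overlap, by a log2 fold change of 0.15 (SE 0.063, adjusted p = 0.282 by limma). *Ramp2* overlaps *Vps25* on the same strand, so that fragments from the overlap could be counted for either gene. *Vps37b*, of ESCRT-I, was at 5.45, 5.93 and 4.31 FPKM against 6.58, 6.90 and 5.82 FPKM, and treated replicate 3 fell within the vehicle range. Its log2 fold change was 0.26 (95% interval -0.026 to 0.55), or 0.15 without vehicle replicate 3, and the deposited table gives it the same span as *Hip1r*.

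*Vps33a* and *Vps33b* encode related proteins that help SNAREs assemble. Vps33a is part of the CORVET and HOPS tethers of endosomes and lysosomes, and Vps33b acts with another partner in recycling and in the making of secretory granules. *Vps33a* (chromosome 5, 123528659 to 123573038) was at 7.30, 6.98 and 7.00 FPKM with vehicle and at 7.80, 7.73 and 7.76 FPKM with FGF1ΔHBS. The treated mice lay close together and above every vehicle mouse. Its promoter, printed above, holds the E-box in 2 copies. The log2 fold change of *Vps33a* was 0.11 (95% interval -0.050 to 0.28, adjusted p = 0.453 by limma). *Vps33b* (chromosome 7, 80269649 to 80291754) was at 4.41, 3.31 and 3.01 FPKM with vehicle and 2.85, 2.37 and 2.68 FPKM with FGF1ΔHBS. The vehicle mice were spread more widely than the treated mice, and all of them were higher. The difference on the log2 scale was -0.32 (SE 0.13, adjusted p = 0.282 by limma), and without vehicle replicate 1, the highest mouse, it was -0.20. Without vehicle replicate 3 it was -0.41. Whether the 2 paralogues differ in response was not tested.

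*Vps51*, of the GARP tether that returns cargo to the Golgi, had means of 8.66 ± 1.14 and 7.75 ± 0.33 FPKM (SD, n = 3) with vehicle and FGF1ΔHBS. *Vps45*, which guides endosomal SNAREs, had means of 3.17 ± 0.66 and 3.30 ± 0.91 FPKM (SD, n = 3). *Vps13a*, a lipid transfer protein of organelle contacts, had means of 2.83 ± 0.20 and 2.91 ± 0.26 FPKM (SD, n = 3). The ranges of the groups overlapped for these 3 genes.

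With all 6 mice 0 of the 8 tested sorting nexins were at an unadjusted p under 0.05 by limma, and *Snx9* was, lower, without vehicle replicate 3. Their log2 fold changes ran from -0.15 (*Snx9*) to 0.17 (*Snx7*). *Snx1* and *Snx6* belong to the coat that draws cargo out of endosomes towards the Golgi. *Snx6*, the highest of the family, was at 13.9, 12.8 and 12.4 FPKM with vehicle and at 13.0, 12.6 and 13.9 FPKM with FGF1ΔHBS, so that the groups covered nearly the same range. Its log2 fold change was 0.012 with a 95% interval from -0.17 to 0.20. *Snx1* was at 11.0, 10.5 and 8.92 FPKM against 10.0, 9.22 and 9.76 FPKM, also with overlap. *Snx9*, *Snx18* and *Snx33* bind dynamin during endocytosis. They were at 9.68, 5.04 and 1.98 FPKM over the 6 mice, each with a lower mean in treated mice and with overlap between the groups. The remaining tested members, *Snx7*, *Snx11* and *Snx32*, overlapped between the groups as well.

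The syntaxins tested were *Stx4a* and *Stx2*, SNAREs of the plasma membrane. *Stx4a* encodes syntaxin 4, on which vesicles with the insulin-responsive glucose transporter dock. Its level was 34.2, 33.6 and 29.6 FPKM with vehicle and 28.1, 30.2 and 29.7 FPKM with FGF1ΔHBS. Vehicle replicate 3 lay among the treated mice and the other vehicle mice lay above all of them. The log2 fold change of *Stx4a* was -0.14 (95% interval -0.32 to 0.041), and without vehicle replicate 3 it was -0.20 (adjusted p = 0.142 by limma). *Stx2* had means of 7.27 ± 1.08 and 6.59 ± 0.60 FPKM (SD, n = 3). The span of *Stx4a* in the deposited table runs beyond the annotated gene.

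Neither cathepsin differed between the groups beyond the spread of the mice, and both were highest in the same mouse. *Ctsb* (chromosome 14, 63122462 to 63145923) encodes cathepsin B, a cysteine protease of the lysosome that is also abundant in macrophages. Its level was 73.5, 85.2 and 110.0 FPKM in the vehicle mice and 88.6, 86.1 and 79.8 FPKM in the treated mice. Vehicle replicate 3 was the highest and the treated mice lay inside the vehicle range. It gave a log2 fold change of -0.059 (95% interval -0.39 to 0.27, adjusted p = 0.868 by limma), and without vehicle replicate 3 it was 0.098. *Ctso*, a related protease, was at 6.25, 5.80 and 8.73 FPKM with vehicle and at 7.06, 6.40 and 6.89 FPKM with FGF1ΔHBS. The highest mouse was again vehicle replicate 3. That mouse was the highest for 6 of the 38 tested genes, among them also *Rab3ip*, *Atg5*, *Rab11fip3* and *Rab4b*. *Snx20*, a sorting nexin of leukocytes under the minimum for the test, was at 0.567, 0.309 and 1.09 FPKM with vehicle and 0.370, 0.701 and 0.594 FPKM with FGF1ΔHBS.

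In the same mouse *Cd74* was at 90.9 FPKM, against 27.1 and 25.1 FPKM in the other vehicle mice and 4.67 to 5.88 FPKM in the treated mice. *Cd14* was at 9.17 FPKM there, against 3.84 and 3.91 FPKM with vehicle and 2.40 to 3.04 FPKM with FGF1ΔHBS. *Ptprc* was at 3.43 FPKM, against 1.67 and 1.32 FPKM with vehicle and at most 1.21 FPKM with FGF1ΔHBS. Unlike the cathepsins, these markers were lower in all 3 treated mice than in all vehicle mice. Only 3 of the 13 genes on the list of macrophage markers were analysed here, and their part in the levels of *Ctsb*, *Ctso* and *Snx20* was not tested. Of the 2 cathepsins, *Ctsb* overlaps *Fdft1* on the opposite strand.

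**Figure D4:**
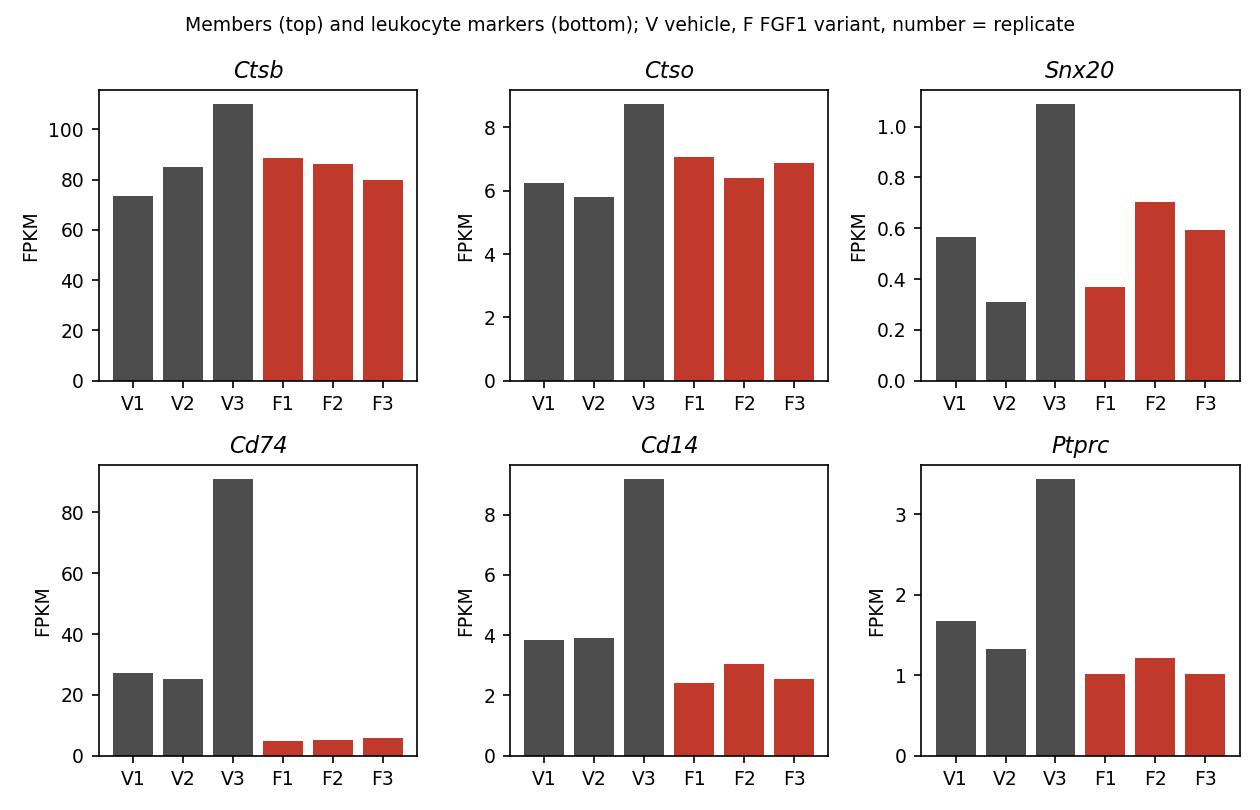
FPKM (bars, y axis from 0) of *Ctsb*, *Ctso* and *Snx20* above and of the leukocyte markers *Cd74*, *Cd14* and *Ptprc* below, in each of the 3 vehicle mice (V, grey) and the 3 FGF1ΔHBS mice (F, red). Vehicle replicate 3 has the highest bar in all 6 panels, with 110.0 FPKM of *Ctsb* and 90.9 FPKM of *Cd74*. It was the highest mouse for 6 of the 38 tested genes.

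The proton pump was represented by *Atp6v1a*, which encodes the subunit that splits ATP. It lies on chromosome 16 from 44085402 to 44139705. Its level was 7.40, 5.87 and 7.18 FPKM with vehicle and 5.79, 5.34 and 6.92 FPKM with FGF1ΔHBS. The groups overlapped, and the log2 fold change was -0.16 (95% interval -0.44 to 0.13, adjusted p = 0.554 by limma). With 1 mouse left out it ran from -0.25, without FGF1ΔHBS replicate 3 or vehicle replicate 2, to -0.10 without vehicle replicate 1 and -0.086 without FGF1ΔHBS replicate 2. Quantile normalization gave -0.093. Of 18 markers of kidney epithelium, where the pump is abundant, 2 were analysed here. *Slc12a1* was at 0.844 FPKM in FGF1ΔHBS replicate 3 and at 0.138 FPKM or less in the others, and *Aqp3* at 0.151 FPKM and at 0.0502 FPKM or less. Their part in the level of *Atp6v1a* was not tested.

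Of the autophagy genes, *Map1lc3a* and *Atg5* were analysed here. *Map1lc3a* (chromosome 2, 155276297 to 155278073) was at 314, 360.3 and 350.1 FPKM with vehicle and at 419, 384 and 372 FPKM with FGF1ΔHBS. Every treated mouse was above every vehicle mouse. The means were 341 ± 24.5 and 391 ± 24.4 FPKM (SD, n = 3), a ratio of 1.15. Its log2 fold change of 0.20 (SE 0.084, 95% interval -1.3e-05 to 0.39, adjusted p = 0.289 by limma) lay at the edge of the unadjusted threshold. It moved with the scaling, from 0.077 with quantile normalization to 0.32 with correction for GC content. *Atg5* encodes a part of the complex that attaches LC3 to the growing membrane. Its level was 6.72, 7.18 and 7.53 FPKM with vehicle and 7.02, 6.74 and 6.17 FPKM with FGF1ΔHBS, with overlap. The log2 fold change of *Atg5* was -0.093 (95% interval -0.29 to 0.11). It was -0.059 without vehicle replicate 3, -0.048 without FGF1ΔHBS replicate 3 and -0.025 with quantile normalization. The amount of LC3 mRNA does not measure the rate of autophagy, which depends on the attachment of the protein to membrane.

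The 5 genes under the minimum were not tested. *Rab32*, of lysosome-related organelles, was at 0.895, 0.797 and 0.950 FPKM with vehicle and at 1.52, 0.766 and 0.806 FPKM with FGF1ΔHBS. *Rab15* and *Rab19* were between 0.058 and 0.610 FPKM in all mice, and none of the 5 genes separated the groups.

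**Figure D5:**
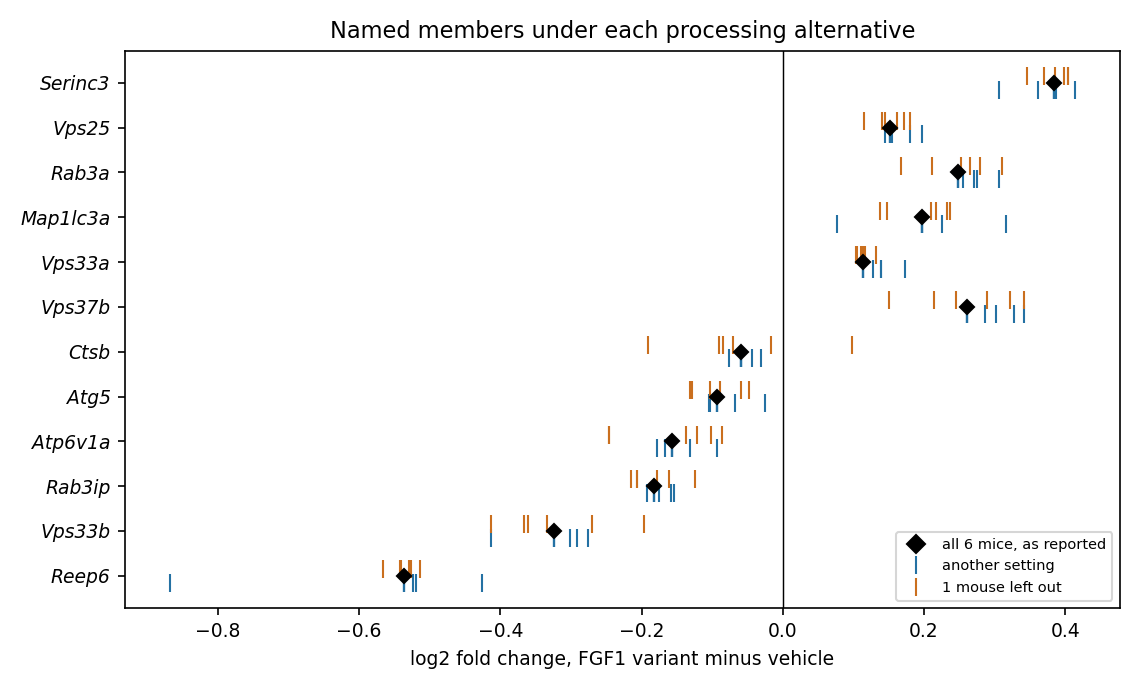
Log2 fold change (x axis) of 12 named genes with all 6 mice (diamonds), under other settings (blue ticks) and with 1 mouse left out (orange ticks). *Serinc3* stays between 0.31 and 0.41 and *Reep6* between -0.87 and -0.43, while *Ctsb* runs from -0.19 to 0.098 across 0.

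Other genes of these pathways were read from lists of lysosomal proteins, autophagy regulators, coats with tethers, and SNARE partners with Rab regulators. Most genes of each list were not analysed here. Of the lists, 32 genes were tested and none passed the adjusted threshold by limma. At an unadjusted p under 0.05 there were 9 (28.1%), against 17.1% of all genes. No test of this share was made. Among 12 lysosomal proteins, *Ppt1*, which removes fatty acids from proteins, was at 34.0 ± 2.13 FPKM with vehicle and 40.3 ± 1.21 FPKM with FGF1ΔHBS (SD, n = 3). *Gaa*, the enzyme that degrades glycogen in the lysosome, was lower, at 37.9 ± 4.81 and 31.8 ± 0.73 FPKM (SD, n = 3). The groups did not overlap for either gene.

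Among the 7 autophagy regulators tested, 3 were lower at an unadjusted p under 0.05 by limma and 0 were higher. Over all genes tested, 10.0% were lower and 7.10% higher. The rest of that list, its larger part, was not analysed here. *Mtor* encodes the kinase that restrains autophagy when nutrients are plentiful. It was at 9.44, 9.85 and 9.51 FPKM with vehicle and 8.34, 8.22 and 7.57 FPKM with FGF1ΔHBS (log2 fold change -0.23, adjusted p = 0.173 by limma). *Wipi1*, which binds the lipid PI3P on forming autophagosomes, was at 37.6, 40.7 and 35.6 FPKM and 31.4, 29.7 and 32.4 FPKM (log2 fold change -0.27, adjusted p = 0.132 by limma). *Tecpr1*, which tethers autophagosomes to lysosomes, was at 8.56, 9.21 and 7.50 FPKM and 6.83, 7.30 and 7.01 FPKM (log2 fold change -0.22, adjusted p = 0.276 by limma). In these 3 genes all treated mice were below all vehicle mice. The list thus held members that promote autophagy and 1 that restrains it.

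Of 7 genes of coats, ESCRT and tethers only *Cog5*, a part of the Golgi tether COG, was at an unadjusted p under 0.05. It was higher, at 8.83 ± 0.64 against 7.40 ± 0.76 FPKM (SD, n = 3), although 1 treated mouse lay inside the vehicle range. Of 6 SNARE partners and Rab regulators, *Rin3*, an exchange factor for Rab5, was at 3.72, 3.92 and 3.90 FPKM with vehicle and 2.62, 2.39 and 2.89 FPKM with FGF1ΔHBS. Its log2 fold change of -0.42 (SE 0.092, adjusted p = 0.116 by limma) had the smallest adjusted p of the 32 genes. *Rilpl1*, which binds phosphorylated Rab proteins, was higher at 40.8 ± 1.85 against 33.6 ± 2.14 FPKM (SD, n = 3).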

How the data were processed

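The authors deposited FPKM values for hearts of 3 vehicle-treated and 3 FGF1ΔHBS-treated mice, 1 value per gene and mouse, and the values were used as deposited. The study's methods name Trimmomatic for the raw data. The submitters' processing notes name HISAT2 2.0, StringTie 1.3.0, Bowtie 0.12.2 and the build mm8 without their roles, whereas the spans in the table match GRCm38: 2098 of the 4132 are identical to GENCODE M21, from which locations were taken. The labels describe paired-end sequencing and the study's methods single-end sequencing, and the labels' extraction text speaks of adipose tissue although tissue and source are given as heart. Strand-specific counting is not given in the sources used here. The table ends inside the description of its last gene, so it holds part of the transcriptome.

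A pseudocount of 1 was added before taking log2. The test was limma 3.58.1 under R 4.3.3, using lmFit and a trended eBayes, on the 2041 genes averaging 1 FPKM or more, and p-values were adjusted over all of these by Benjamini-Hochberg. FPKM values give no read number, so the precision rests on the 3 mice per group. On simulated data for this comparison, with 200 of 2041 genes changed, 63% of changes of 0.5 and 91.5% of changes of 1 on the log2 scale were recovered.

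The genes and lists were chosen with earlier results of these data known. Named with values were the genes at an unadjusted p under 0.05, the highest of each family, and core genes of each pathway. *Vps33a* and *Vps37b* were given fold changes after their values were seen. Promoters were taken from RefSeq (GRCm38.p6). The alternatives were another pseudocount, other filters, 2 scalings, 2 forms of eBayes, a replicate block, and the omission of each mouse. A correction for GC content, fitted on the genes with an annotated transcript, was added after seeing the data. Some items are not reported here.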

Additional observations from a re-analysis of the deposited data

How the results depend on the processing

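Over all genes, 2 had an adjusted p under 0.05. There were 4 at a pseudocount of 0.1, 5 with robust eBayes, 1 with median ratio scaling, quantile normalization, eBayes without trend and the GC correction, and 0 without a filter and with the replicate block. With 1 mouse left out it ran from 0 to 82, and the number lower at an unadjusted p under 0.05 ran from 122 to 328. Among the vesicle genes 0 passed the adjusted threshold with all 6 mice and from 0 to 2 with 1 mouse left out. At an unadjusted p under 0.05, 3 were higher, against 5 with median ratio scaling and with the GC correction and 1 to 4 with 1 mouse left out. A further 3 were lower, against 1 with a minimum of 5 FPKM or quantile normalization and 1 to 6 with 1 mouse left out. Their median log2 fold change of -0.059 was -0.030 without a filter, -0.031 with median ratio scaling and -0.012 with quantile normalization. The median over all genes tested also rose, from -0.021 to -0.0090, 0.0044 and 0.011 in these settings. *Serinc3* and *Reep6* kept their direction and an unadjusted p under 0.05 in all alternatives that tested them, which the minimum of 5 FPKM did not do for *Reep6*.

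With 1 mouse left out *Ctsb* ran from -0.190 to 0.098 on the log2 scale and was above 0 without vehicle replicate 3. *Snx6* ran from -0.027 to 0.058, and changed sign without vehicle replicate 3 (-0.021), without FGF1ΔHBS replicate 3 (-0.027) and with the GC correction (-0.0036). Of the 15 genes followed through the alternatives, the others kept their direction. Filters and left-out mice change the genes or mice compared, and for the other settings the cause was not tested. With the replicate block the vesicle genes at an unadjusted p under 0.05 were *Serinc3* and *Vps37b*, higher, and *Reep6* and *Vps33b*, lower. Deviations from the group means correlated at -0.0078, -0.16 and -0.22 between mice with the same replicate number. With so few mice these values cannot show whether mice were paired or handled in batches. Depth is known only as a ratio between libraries.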
